A study of Mus musculus with 6 samples.

Results

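Levels of 10 genes of glucose uptake and glycolysis were compared, chosen by name from the 38924 gene models in the deposited tables: the glucose transporter genes Slc2a1 and Slc2a3, and the enzyme genes Hk1, Hk2, Pfkp, Tpi1, Eno1, Eno3, Pkm and Ldha. All 10 were found, and all 10 had enough reads for a test. All 6 libraries hold RNA of CD4+CD25+ T cells, a fraction rich in regulatory T cells, from untreated WT (wild-type) mice, male and female, aged 10 to 16 weeks. Spleen and mesenteric lymph node cells were first enriched magnetically and then separated by FACS. One group carried surface ILT3 (ILT3+, 3 samples) and the other did not (ILT3-, 3 samples). ILT3, an inhibitory surface receptor, is best known from antigen-presenting cells, and the comparison asks in what the transcriptomes of the sorted fractions differ. Whether each sample is a separate animal or a pool is not stated in the labels, and p-values therefore measure only the spread between samples, part of which may be technical.

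Glycolysis splits glucose into pyruvate in the cytosol. Facilitative transporters of the Slc2a family let glucose in, hexokinases trap it as glucose 6-phosphate, phosphofructokinase commits it to the pathway, and the lower enzymes, from triose phosphate isomerase to enolase and pyruvate kinase, recover ATP before lactate dehydrogenase turns pyruvate into lactate. Several steps have isoforms from separate genes, and activated and dividing T cells are known to raise uptake and glycolysis, while regulatory T cells are known to rely on it less than effector T cells.

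Libraries held 9334370 to 13648274 total gene reads. Levels are given as CPM, reads scaled to a common library size with TMM factors. Defining genes of the labelled cells were present: the summed level of Foxp3, Il2ra, Ikzf2 and Ctla4 was 3161 to 3897 CPM in ILT3- and 3146 to 4059 CPM in ILT3+ libraries. The 5 CD4+ T cell genes Cd3e, Cd3g, Cd4, Cd5 and Trac summed to 2410 to 3335 CPM in ILT3- and 2110 to 2939 CPM in ILT3+ libraries. Of their log2 fold changes 4 were negative and 1 was positive, and 0 were called by edgeR. Deviations from the group means, across genes, correlated more between the libraries numbered 1 (0.400) than between those numbered 2 (0.260) or 3 (0.271). Against libraries of the other group numbered 2 or 3, the libraries numbered 1 gave -0.305 to -0.258. Deviations sum to 0 within a group, so these negative values follow in part from the 0.400 and are no separate support. Markers of some other cells moved with the groups, and those of others did not. Summed levels in ILT3- and ILT3+ libraries overlapped for CD8 T cell genes (11.5 to 30.8 and 13.8 to 17.8 CPM). They also overlapped for B cell genes (20.7 to 29.8 and 28.6 to 64.5 CPM) and platelet genes (0.872 to 5.53 and 0.322 to 1.78 CPM). NK genes overlapped too (0.145 to 7.21 and 0.483 to 30.6 CPM), and neutrophil genes reached at most 0.402 CPM. The 11 dendritic cell genes summed to 166 to 197 CPM in ILT3- and 1738 to 2922 CPM in ILT3+ libraries, with none at 0 reads. The 9 monocyte and macrophage genes summed to 7.78 to 22.7 CPM in ILT3- libraries, to 24.8 and 30.1 CPM in ILT3+ samples 2 and 3 and to 718 CPM in ILT3+ sample 1. The 7 erythroid genes summed to at most 5.29 CPM in ILT3- and to 42.1 to 204 CPM in ILT3+ libraries. In these bulk samples fewer cells of a type and less RNA per cell cannot be told apart, and the part of these cells in the results was not tested unless a value is given.

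Whether isoforms can be counted apart depends on how far their sequences differ. Over the longest coding sequences in GENCODE M21 (GRCm38), Eno3 and Eno1 had 76.7% of aligned bases in common over 1302 bases, with no shared run longer than 20 bases. All exon reads of Eno3 were uniquely placed (100%). A stretch of coding bases 652 to 711 from the middle of the alignment shows how the enolase genes are told apart, with the 15 differing bases in capitals.
Eno1: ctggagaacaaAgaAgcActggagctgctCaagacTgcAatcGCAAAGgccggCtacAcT
Eno3: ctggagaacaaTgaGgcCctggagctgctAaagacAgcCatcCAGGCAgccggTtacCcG
Eno1 in turn has a near-identical copy, Eno1b, with 99.4% of coding bases in common and a shared run of 725 bases, and 19.5% of the exon reads of Eno1 were uniquely placed. Levels of Eno1 therefore include reads that could belong to the copy. Hk2 and Hk1 had 69.1% of aligned bases in common and Slc2a3 and Slc2a1 67.2%.

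Of the 10 genes, Tpi1 rose and Eno3 fell in ILT3+ cells, and the other 8 did not pass. The test was edgeR's quasi-likelihood test on total gene reads, called at a Benjamini-Hochberg adjusted p under 0.05. In this test 2.31% of all 13694 genes were called, 1.96% as higher and 0.343% as lower. The 10 genes were chosen with earlier results of these data known, which limits any comparison of their counts with shares over all genes. The median log2 fold change of the 10 genes was 0.16, against -0.02 over all genes tested, with 6 positive and 4 negative values. For 4 of the 10 the groups were apart in CPM of total gene reads, Tpi1 and Pkm as higher and Slc2a1 and Eno3 as lower. Of all genes tested 20.2% were apart (11.4% higher, 8.76% lower). For Slc2a1 the groups overlapped on unique exon reads. With sample number as a block 2 were higher, Tpi1 and Pkm, and Eno3 was lower, in a fit that called 6.81% of all genes (4.18% higher, 2.62% lower). On unique exon reads only Eno3 was called, where 1.85% of genes were (1.61% higher, 0.245% lower). Without both libraries numbered 1, Tpi1 and Eno3 were called, as were 5.64% of all genes (4.48% higher, 1.15% lower). DESeq2 called the same pair, and 6.97% of all genes (5.11% higher, 1.86% lower).

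**Figure D1:**
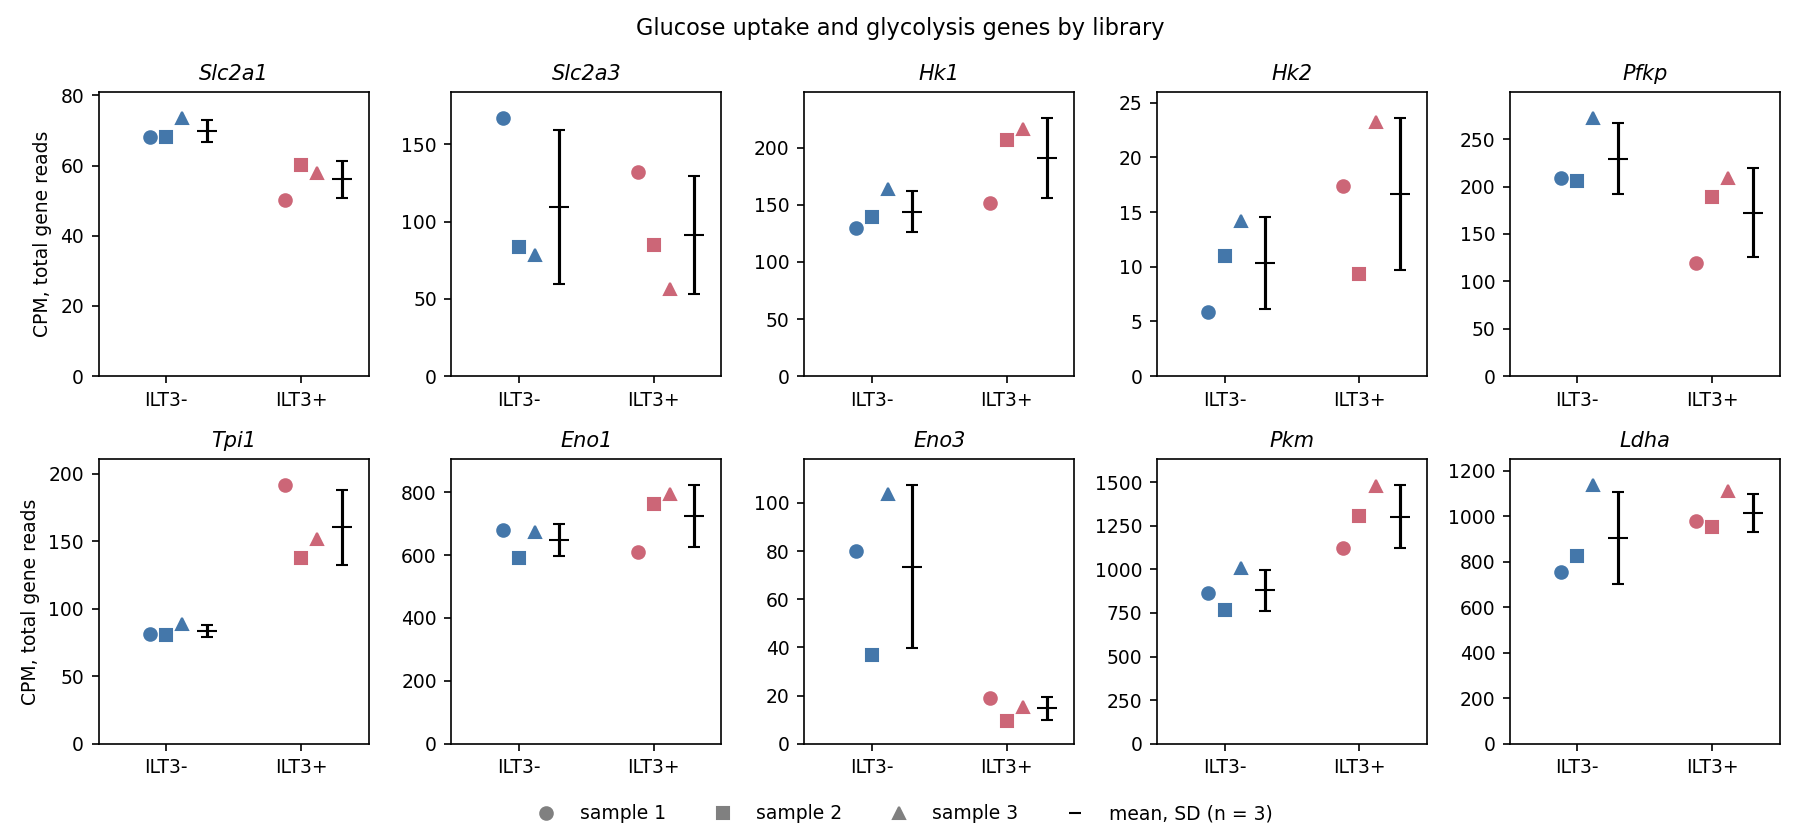
CPM of total gene reads (linear axes from 0) for the 10 genes in each library, with a symbol per sample number and the mean and SD of 3 samples in black. ILT3- and ILT3+ points are apart for Slc2a1, Tpi1, Eno3 and Pkm and overlap for the other genes.

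Neither glucose transporter gene passed the test. Slc2a1 (chromosome 4, 119108711 to 119137330, plus strand) encodes GLUT1, the transporter that T cells raise on activation. Slc2a1 had 68.1, 68.0 and 73.6 CPM in ILT3- samples 1, 2 and 3 and 50.1, 60.2 and 57.8 CPM in ILT3+ samples 1, 2 and 3. All ILT3+ values lay below all ILT3- values, by a small margin that was not called (log2 fold change -0.32, SE 0.18, adjusted p = 0.502, edgeR). Of its reads 53.7% were uniquely placed, and introns held 37.9% and 25.3% of the reads in the libraries numbered 1 against 2.27% to 6.12% in the other 4. On unique exon reads the value was -0.29 (SE 0.31, adjusted p = 0.776, edgeR). There the groups overlapped, at 33.4, 56.3 and 53.6 CPM in ILT3- and 27.8, 44.6 and 45.2 CPM in ILT3+ samples 1, 2 and 3.

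Slc2a3 (chromosome 6, 122727809 to 122801640, minus strand) encodes GLUT3, a transporter of high affinity. Slc2a3 had 167, 83.7 and 78.3 CPM in ILT3- and 132, 84.8 and 56.6 CPM in ILT3+ samples 1, 2 and 3. The libraries numbered 1 were the highest of both groups, and the groups overlapped (log2 fold change -0.27, SE 0.39, adjusted p = 0.849, edgeR). Without ILT3- sample 1 the sign turned, to 0.17. Per kb of exon, Slc2a3 took 55.5% and 51.5% of the summed level of both genes in the libraries numbered 1 and 20.8% to 29.8% in the other 4. The log2 ratio of Slc2a3 over Slc2a1 was -0.90 ± 1.06 in ILT3- and -1.03 ± 1.03 in ILT3+ cells (SD, n = 3 each), a difference of -0.13 (exact two-sided permutation p = 0.800, adjusted over 3 ratios 0.800). Of the exon reads of Slc2a1 48.4% were uniquely placed, and by unique exon reads the average share of Slc2a3 was 51.9% ± 18.4 in ILT3- and 50.9% ± 17.9 in ILT3+ cells, against 35.9% ± 17.1 and 34.0% ± 15.8 by total exon reads (SD, n = 3). Which transporter gene leads on average therefore depends on the reads counted. It also depends on the exon lengths of the deposited models, 2853 bases for Slc2a1 and 7245 for Slc2a3.

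Hexokinase was led by Hk1 in all 6 libraries. Hk1 (chromosome 10, 62268855 to 62379908, minus strand) encodes the widely expressed isoform that sits on mitochondria. Hk1 had 130, 139 and 164 CPM in ILT3- and 151, 206 and 216 CPM in ILT3+ samples 1, 2 and 3. ILT3+ sample 1 fell within the ILT3- range, while each ILT3+ library was above the ILT3- library of its own number (log2 fold change 0.41, SE 0.20, adjusted p = 0.427, edgeR, with the block 0.128). Hk2 (chromosome 6, 82725025 to 82774454, minus strand), the isoform that many dividing cells induce, was the lowest of the 10 genes per kb of exon in both group means. Hk2 had 5.89, 11.0 and 14.2 CPM in ILT3- and 17.4, 9.33 and 23.2 CPM in ILT3+ samples 1, 2 and 3. It had 49 to 291 reads per library. The groups overlapped, and the fold change had a wide error (0.68, SE 0.48, adjusted p = 0.630, edgeR). The log2 ratio of Hk2 over Hk1 per kb of exon was -3.41 ± 0.70 and -3.01 ± 0.64 (SD, n = 3), with an exact two-sided permutation p of 0.500, 0.750 adjusted.

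The third hexokinase gene, Hk3, is not among the 10 and is known mainly from myeloid cells. Hk3 rose in ILT3+ libraries, from 2.88, 0.707 and 0.436 CPM in ILT3- to 59.9, 20.3 and 17.2 CPM in ILT3+ samples 1, 2 and 3 (log2 fold change 4.66, SE 0.86, adjusted p = 0.0377, edgeR). The groups did not overlap, and ILT3+ sample 1 was the highest. Per kb of exon it made up 42.8%, 11.9% and 11.2% of the hexokinase level in the ILT3+ libraries and 0.653% to 5.45% in ILT3- libraries. The macrophage gene Csf1r stood at 266 CPM in the first ILT3+ library, against 2.25 and 0.399 CPM in the others, and its part in the result was not tested. With single libraries left out Hk3 ranged from 3.86 without ILT3+ sample 1 to 5.81 without ILT3- sample 1. Its call held in the latter fit alone (adjusted p = 0.0178) and was lost in the other 5 (adjusted p = 0.0684 to 0.167). Without both libraries numbered 1 it was 5.05 (adjusted p = 0.00227, edgeR). On unique exon reads it was 4.20 and not called (adjusted p = 0.0783).

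Pfkp (chromosome 13, 6579768 to 6648777, minus strand) encodes the platelet-type subunit of phosphofructokinase. Pfkp had 210, 206 and 273 CPM in ILT3- and 119, 189 and 209 CPM in ILT3+ samples 1, 2 and 3. ILT3+ sample 1 was the lowest, and ILT3+ sample 3 reached into the ILT3- range (log2 fold change -0.41, SE 0.25, adjusted p = 0.550, edgeR). Introns held 54.1% of its reads in ILT3- sample 1 and 18.9% to 30.1% in the other libraries, and on unique exon reads the value was -0.18 (SE 0.33, adjusted p = 0.888, edgeR). Per kb of exon, Pfkp made up 39.3% ± 6.11 of the 3 subunit genes in ILT3- and 33.8% ± 10.8 in ILT3+ cells (SD, n = 3), next to the liver-type Pfkl at 50.3% ± 4.82 and 58.9% ± 9.09.

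**Figure D2:**
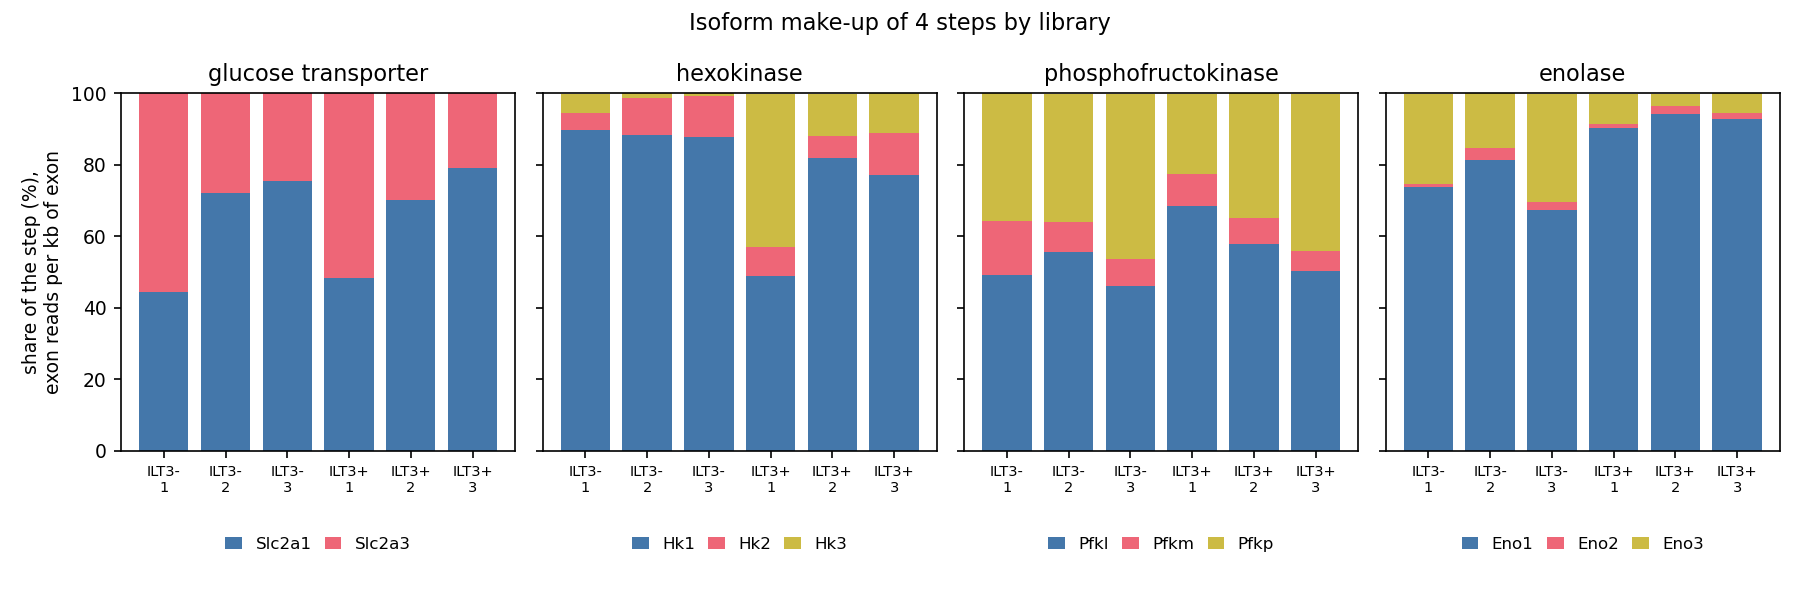
Share of each isoform gene in the summed level of its step (percent, total exon reads per kb of exon) in the 6 libraries, with sample numbers under the group names. The shares depend on the exon lengths of the deposited models. Eno3 takes 15.4% to 30.4% of enolase in ILT3- and 3.57% to 8.66% in ILT3+ libraries, and Hk3 takes 42.8% of hexokinase in ILT3+ sample 1.

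Tpi1 (chromosome 6, 124810586 to 124814296, minus strand) encodes triose phosphate isomerase, which interconverts the triose phosphates made by aldolase. Tpi1 had 80.9, 80.8 and 88.7 CPM in ILT3- and 191, 138 and 151 CPM in ILT3+ samples 1, 2 and 3. The lowest ILT3+ library was well above the highest ILT3- library. The mean rose from 83.4 ± 4.53 to 160 ± 27.8 CPM (SD, n = 3), 1.92-fold or 0.94 on the log2 scale (SE 0.18, adjusted p = 0.0428, edgeR). Between libraries of the same number the log2 differences were 1.24, 0.77 and 0.77. The call was near the threshold: it was lost on exon reads (0.93, adjusted p = 0.0538) and unique exon reads (0.88, adjusted p = 0.0654), and whichever single library was left out (0.79 to 1.05, adjusted p = 0.0806 to 0.170). It was kept with the block (adjusted p = 0.0186) and without both libraries numbered 1 (0.80, adjusted p = 0.0347). Only 0.607% of its reads were in introns, and 79.6% were uniquely placed. Its model overlaps that of Spsb2 by 34 bases.

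Eno3 (chromosome 11, 70657202 to 70662513, plus strand) encodes beta-enolase, the isoform best known from skeletal muscle. Eno3 had 80.0, 36.8 and 104 CPM in ILT3- and 19.0, 9.57 and 15.3 CPM in ILT3+ samples 1, 2 and 3. All ILT3+ libraries were below the lowest ILT3- library, and sample 2 was the lowest in both groups. The mean fell from 73.4 ± 33.9 to 14.6 ± 4.73 CPM (SD, n = 3), 5.03-fold lower or -2.33 on the log2 scale (SE 0.43, adjusted p = 0.0377, edgeR). Between libraries of the same number the log2 differences were -2.08, -1.94 and -2.76, and with the block the adjusted p was 0.00557. Exon reads gave -2.29 (adjusted p = 0.0378) and unique exon reads -2.30 (adjusted p = 0.0440). Leaving out 1 library ended the call for 5 of the 6 libraries, all but ILT3- sample 2, with values from -2.64 to -1.99 (adjusted p = 0.0428 to 0.149).

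Of the reads of Eno3, 5.21% were in introns, and 998 of 3072 crossed an exon junction. Of 6 striated muscle marker genes, Acta1, Myh4 and Des had 0 reads in all libraries, Mb had 1 and Ckm 44, while Tnnt3 averaged 4.75 ± 3.40 and 3.88 ± 1.51 CPM in ILT3- and ILT3+ libraries (SD, n = 3; edgeR adjusted p = 0.908). The summed level of these markers was 3.36 to 8.64 CPM in ILT3- and 2.53 to 6.51 CPM in ILT3+ libraries. The part of muscle RNA in the reads of Eno3 was not tested.

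Eno1 (chromosome 4, 150236721 to 150248879, plus strand), which encodes the ubiquitous alpha-enolase, did not follow Eno3. Eno1 had 679, 590 and 673 CPM in ILT3- and 611, 763 and 796 CPM in ILT3+ samples 1, 2 and 3, and the groups overlapped (log2 fold change 0.16, SE 0.18, adjusted p = 0.795, edgeR). The copy Eno1b was at 34.4 and 32.8 CPM on average. The log2 ratio of Eno3 over Eno1 per kb of exon was -1.70 ± 0.64 in ILT3- and -4.07 ± 0.67 in ILT3+ cells (SD, n = 3), a difference of -2.38 without overlap (exact two-sided permutation p = 0.1, the smallest this design allows, 0.300 adjusted over 3 ratios). The exon length of the deposited model was 5379 bases for Eno1 and 1739 for Eno3, while both coding sequences have 1302 bases. Levels and shares per kb depend on these lengths. Undivided by length, Eno3 had 2559 total gene reads and Eno1 22422 in ILT3- libraries, and 513 and 25972 in ILT3+ libraries. Of the summed enolase level per kb Eno3 made up 25.4%, 15.4% and 30.4% in the ILT3- libraries. In the ILT3+ libraries it made up 8.66%, 3.57% and 5.38%, in order of number. Counting unique exon reads alone, which removes most reads of Eno1, these shares were 44.4% to 67.0% and 15.3% to 31.7%. The summed level of Eno1, Eno2 and Eno3 was 220 ± 33.7 and 192 ± 23.9 exon reads per kb, scaled as CPM (SD, n = 3), with overlapping groups.

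Pkm and Ldha, at the lower end of the pathway, were the most abundant of the 10 genes per kb of exon. Pkm (chromosome 9, 59656368 to 59679375, plus strand) encodes the pyruvate kinases M1 and M2, which gene-level counts do not separate. Pkm had 865, 770 and 1006 CPM in ILT3- and 1122, 1307 and 1480 CPM in ILT3+ samples 1, 2 and 3. The groups did not overlap, and the difference was not called without the block (log2 fold change 0.57, SE 0.19, adjusted p = 0.238, edgeR) and was called with it (0.57, SE 0.10, adjusted p = 0.0286). Pkm was not called on unique exon reads with the block (0.54, adjusted p = 0.0519). On unique exon reads, 59.4% of all its exon reads, the value was 0.54 (SE 0.18, adjusted p = 0.241, edgeR). Ldha (chromosome 7, 46841475 to 46855627, plus strand) encodes the lactate dehydrogenase subunit that favours lactate production. Ldha had 756, 827 and 1136 CPM in ILT3- and 980, 952 and 1111 CPM in ILT3+ samples 1, 2 and 3, with overlapping groups (log2 fold change 0.16, SE 0.21, adjusted p = 0.822, edgeR). Ldha held 84.7% to 93.6% of the summed level of Ldha and Ldhb in the 6 libraries.

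**Figure D3:**
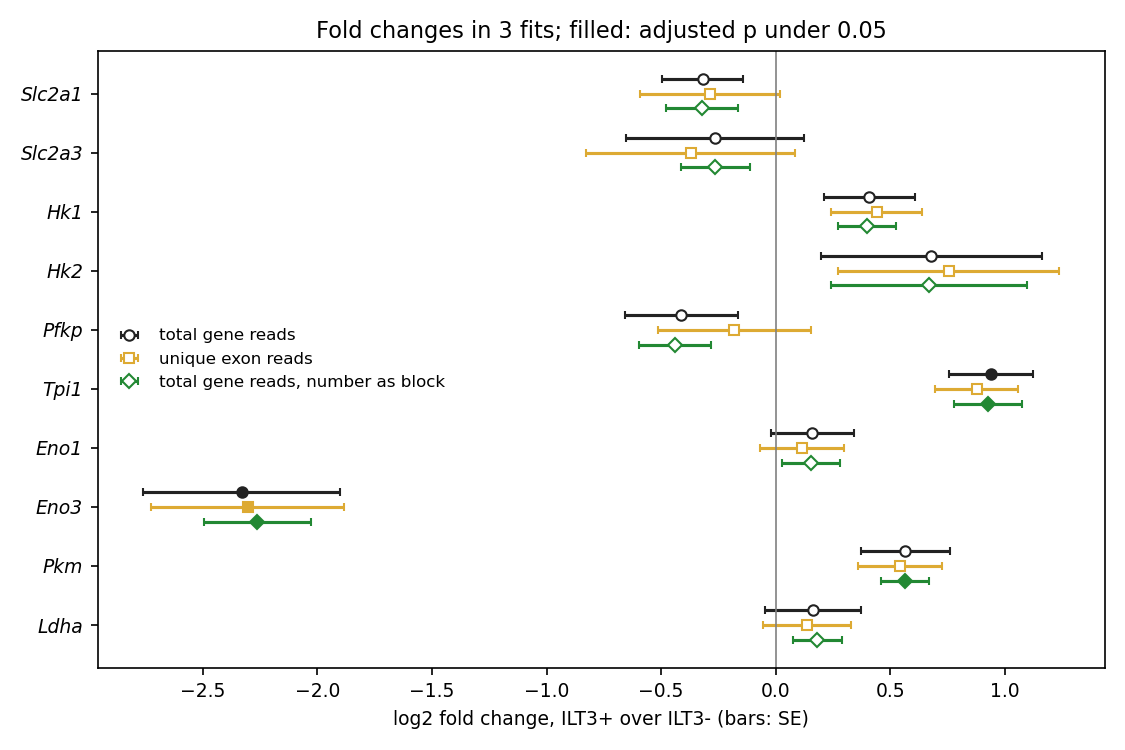
Log2 fold changes of the 10 genes, ILT3+ over ILT3-, with SE as bars, for total gene reads, unique exon reads and total gene reads with sample number as a block, filled where the adjusted p was under 0.05. Eno3 is filled in all 3 fits, Tpi1 in the fits on total gene reads and Pkm in the fit with the block.

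Per kb of exon the order in ILT3- cells was Pkm (438 ± 54.0 exon reads per kb, scaled as CPM), Ldha (404 ± 82.0), Eno1 (161 ± 13.2), Eno3 (53.8 ± 23.6), Tpi1 (50.8 ± 1.60), Slc2a1 (27.8 ± 6.30), Pfkp (21.6 ± 7.21), Hk1 (18.9 ± 1.97), Slc2a3 (15.9 ± 8.43) and Hk2 (1.95 ± 0.94; SD, n = 3). The libraries' values overlapped between neighbours for Pkm and Ldha, for Eno3 and Tpi1, and for each neighbouring pair from Slc2a1 to Slc2a3. The order depends on the exon lengths of the deposited models, from 1739 bases for Eno3 to 9395 for Pfkp. In ILT3+ cells the mean of Eno3 (11.0 ± 3.69) stood below that of Slc2a3 (12.4 ± 5.90), with overlapping values. Tpi1 came after Eno1, at 96.8 ± 17.2, while Pkm (646 ± 90.9) no longer overlapped with Ldha (449 ± 43.5). The 10 genes together summed to 3041, 2811 and 3610 CPM in ILT3- and 3392, 3719 and 4116 CPM in ILT3+ samples 1, 2 and 3. The groups overlapped, and within each of the 3 sample numbers the sum was higher in the ILT3+ library. The 10 proliferation markers summed to 95.8 to 154 CPM in ILT3- and 409 to 506 CPM in ILT3+ libraries, and 7 of them were called as higher; their part in the rise of Tpi1 was not tested.

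Sequence upstream of transcription starts is given for Ldha, the gene of the 10 with the most matches to ACGTG, the core of the site that the hypoxia factor HIF-1 binds, and for the called genes Eno3 and Tpi1, in which no match was found. ACGTG was searched on both strands in RefSeq promoter windows of 300 bases (250 before and 50 after a start, GRCm38.p6), where each CACGTG, the E-box core that MYC and its relatives bind, also counts as ACGTG on either strand. Of the 10 genes 9 had an entry, with 14 windows in all, and Slc2a3 had none. ACGTG was in 5 of the 14 windows (35.7%) and in 19.6% of all 32851 windows. CACGTG was in 1 of 14 (7.14%) against 7.15%, and the GC box GGGCGG in 8 of 14 (57.1%) against 35.7%. The sequences run 5′ to 3′ on the strand of the gene. Capitals mark ACGTG on either strand, in bases before the start and outside annotated exons.
Ldha, chr7:46845554-46845803, plus strand: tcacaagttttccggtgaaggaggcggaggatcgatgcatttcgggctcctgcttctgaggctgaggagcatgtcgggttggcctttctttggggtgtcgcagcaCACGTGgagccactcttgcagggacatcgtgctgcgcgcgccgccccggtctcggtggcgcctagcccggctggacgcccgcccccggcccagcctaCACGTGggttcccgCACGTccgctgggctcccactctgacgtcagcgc
Eno3, chr11:70656926-70657175, plus strand: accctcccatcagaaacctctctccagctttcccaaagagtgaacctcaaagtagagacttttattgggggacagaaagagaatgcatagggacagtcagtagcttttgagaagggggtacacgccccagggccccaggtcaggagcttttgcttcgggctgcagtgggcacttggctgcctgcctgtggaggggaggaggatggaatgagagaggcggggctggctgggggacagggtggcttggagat
Tpi1, chr6:124814297-124814408, minus strand: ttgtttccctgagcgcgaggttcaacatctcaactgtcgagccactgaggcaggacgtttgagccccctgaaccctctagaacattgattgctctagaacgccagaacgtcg
Slc2a1, Hk2, Ldha, Pkm and Hk1 held the 5 windows with ACGTG, for Hk1 with no match in the 250 bases before the start. None of these 5 genes was called on total gene reads without the block. With 2.31% of all genes called in that test, 5 genes are too few to relate matches to calls.

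Other genes of the pathway were called at a share near that of all genes. Of 69 tested genes in 7 lists around the 10 genes, 2 were called as higher and none as lower (2.90%, against 2.31% of all genes), with a median log2 fold change of 0.00. In the list of other glycolytic steps 1 of 13 tested genes was called, Hk3. Pgam1, phosphoglycerate mutase, stood at 0.86 on the log2 scale (SE 0.30, adjusted p = 0.256, with the block 0.0429, edgeR), with 6.19% of its reads uniquely placed. Its adjusted p was 0.454 on unique exon reads with the block. Among other glucose transporters 1 of 5 was called. Slc2a6, a transporter of lysosomal membranes, rose from 0.961, 2.20 and 3.56 CPM in ILT3- to 39.6, 35.6 and 47.5 CPM in ILT3+ samples 1, 2 and 3 (log2 fold change 4.16, SE 0.48, adjusted p = 0.00937, edgeR). The 3 ILT3+ libraries were alike, the difference was 3.87 without the libraries numbered 1 (adjusted p = 0.00204), and unique exon reads gave 4.16 (adjusted p = 0.0122). Leaving out ILT3- sample 2 ended the call (adjusted p = 0.0574), as did leaving out ILT3+ sample 3 (adjusted p = 0.0504). The dendritic cell genes, given above, moved in the same direction, and their part was not tested.

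Of all 13694 genes tested 1889 had an unadjusted p under 0.05 (edgeR). Among 12 switch genes at phosphofructokinase and pyruvate entry edgeR called 0, and 1 had an unadjusted p under 0.05. That gene, Pdk1, a kinase that shuts pyruvate dehydrogenase, had 115, 42.2 and 48.5 CPM in ILT3- and 28.1, 28.8 and 21.1 CPM in ILT3+ samples 1, 2 and 3. The groups did not overlap, and ILT3- sample 1 was far above the rest (log2 fold change -1.40, SE 0.40, adjusted p = 0.151, edgeR, and 0.0188 by DESeq2). Without ILT3- sample 1 Pdk1 was at -0.81 (adjusted p = 0.176, edgeR). For 3 lactate export and 7 pentose phosphate genes edgeR also called 0, and 0 and 1 of them had an unadjusted p under 0.05. The latter was G6pdx, the entry enzyme of the pentose phosphate pathway, at 0.97 (SE 0.41, adjusted p = 0.355, with the block 0.0271, edgeR). Of its reads 34.2% were uniquely placed, and unique exon reads with the block gave 0.76 and no call (adjusted p = 0.168).

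Of 18 tested regulators of the pathway edgeR called 0 with all libraries and without the block. Among them 1 had an unadjusted p under 0.05 (1889 of 13694 over all genes tested). That gene, the prolyl hydroxylase gene Egln3, had a log2 value of 1.16 (SE 0.45, adjusted p = 0.293). Without both libraries numbered 1 it was at 1.92 and called (adjusted p = 0.0139). With the block, in a fit that called 2.62% of all genes as lower, 1 of the 18 regulators was lower, Txnip, which restrains glucose uptake. Txnip had 479, 143 and 221 CPM in ILT3- and 290, 55.0 and 121 CPM in ILT3+ samples 1, 2 and 3. Each ILT3+ library was below the ILT3- library of its number while the groups overlapped (-0.86, SE 0.63, adjusted p = 0.650, with the block 0.0173, edgeR). Txnip was not called on unique exon reads with the block (adjusted p = 0.0711). Its value rested on single libraries: leaving out ILT3- sample 1 gave -0.23, leaving out ILT3+ sample 2 gave -0.45 and leaving out ILT3+ sample 1 gave -1.68. Of its reads 13.9% were uniquely placed. Hif1a and Myc had log2 fold changes of 0.39 (SE 0.35, adjusted p = 0.731) and -0.11 (SE 0.31, adjusted p = 0.927). Of 11 tested HIF-1 targets outside glycolysis edgeR called none without the block, and 1 had an unadjusted p under 0.05. With the block 2 of the 11 were lower, where 2.62% of all genes were. These were Ndrg1 (-1.27, SE 0.29, adjusted p = 0.0801, with the block 0.0105) and Kdm3a (-0.61, SE 0.28, adjusted p = 0.389, with the block 0.0496). Without the block 5 of the 11 log2 values were positive and 6 negative, from -1.27 to 1.93 with a median of -0.01. With the block on unique exon reads Ndrg1 was called (adjusted p = 0.0265) and Kdm3a was not (adjusted p = 0.0662). Ndrg1 was also called by DESeq2 (adjusted p = 0.00302) and without both libraries numbered 1 (-1.20, adjusted p = 0.0146).

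**Figure D4:**
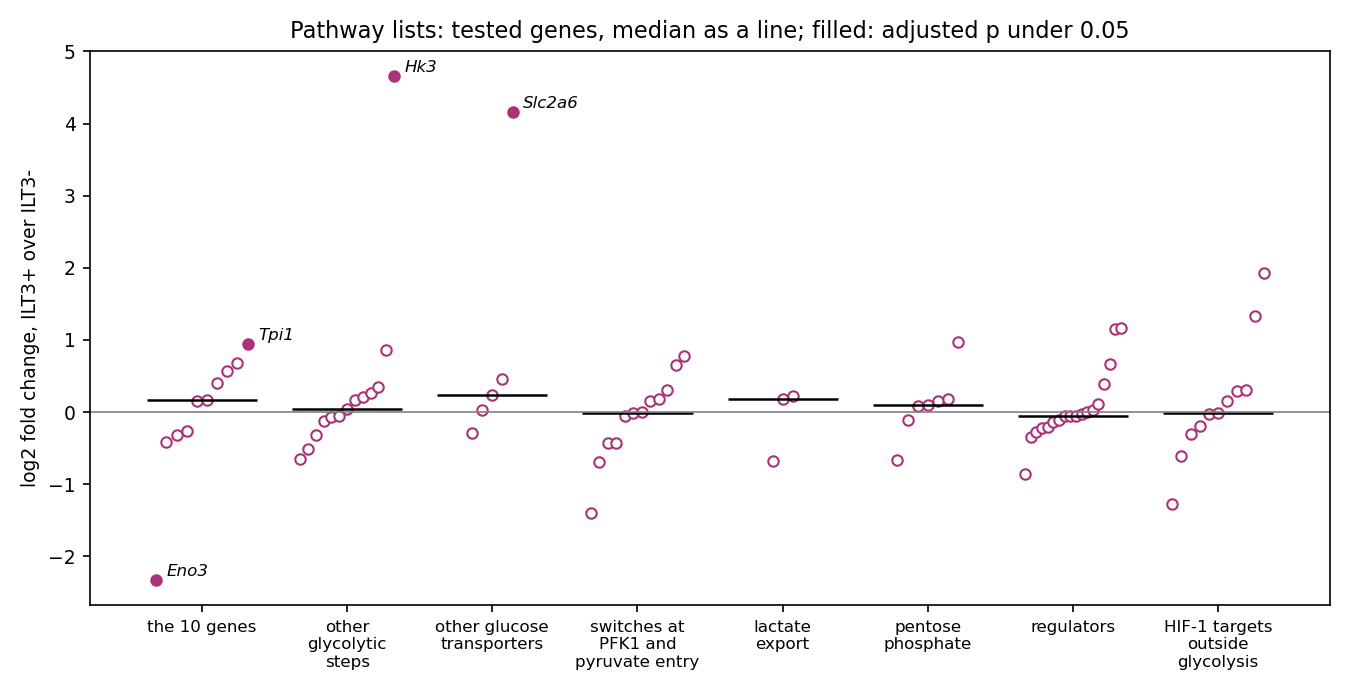
Log2 fold changes (ILT3+ over ILT3-) of the tested genes in the 10-gene set and 7 pathway lists, each list's median as a line, filled where the adjusted p was under 0.05. The filled points are Tpi1, Eno3, Hk3 and Slc2a6, and every list median lies between -0.06 and 0.24.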

How the data were processed

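RNA of 6 samples was measured, 3 of ILT3+ and 3 of ILT3- cells, from 1 ng each after full-length cDNA amplification, per the labels' protocols. The authors deposited read counts per gene model: per the file headers, total and unique reads over genes, exons and introns. GRCm38 is the build, per the submitters' processing notes. For the aligner, counting tool, annotation and strand setting, nothing is given in the sources used here. Deposited exon lengths served for levels per kb of exon, and gene lengths only for an alternative of the isoform ratios.

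Total gene reads were tested with edgeR 4.0.16 (R 4.3.3), with group as the only term, robust quasi-likelihood dispersion, TMM scaling and the default filter on low counts (10 per library, 15 in all). P-values were Benjamini-Hochberg adjusted over all 13694 genes tested and called at 0.05. SE was computed as the log2 value over the square root of F. The members and lists were chosen with earlier results of these data known. Of 153 list symbols 150 were found by name and 3 through RefSeq synonyms. Named list genes were all called ones and up to 4 of smallest p per list with at least 10 CPM on average. Pgam1, Hif1a, Myc and Txnip were named after their values were seen. Isoform ratios were compared with an exact two-sided permutation test, whose smallest p with 3 against 3 is 0.1.

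Both groups have samples numbered 1 to 3. Libraries of one number deviated together from their group means (correlations 0.400, 0.260 and 0.271). By a rule of over 0.1 in every such pair the numbers were used as pairs, which the labels do not state. Unlike numbers could pass too: number 3 of ILT3- against number 2 of ILT3+ gave 0.163, and 2 against 3 gave 0.117. The rule alone thus cannot single out how numbers 2 and 3 match, although the same-number values were higher. Values with the block or within a number rest on this choice, made from the same counts. Alternatives were other count columns, DESeq2 1.42.0, library size scaling, no filter, the block and left-out libraries. The fit was tested on simulated counts.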

Additional observations from a re-analysis of the deposited data

How the results depend on the processing

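The signs of all 10 genes held in the 15 alternatives, except for Slc2a3, which ranged from -0.63 to 0.17 with single libraries left out. Hk2, with 49 to 291 reads per library, had the largest SE of the 10 genes (0.48, edgeR on total gene reads, 3 samples a group). Without the block 269 genes were higher and 47 lower, and with the replicate block 573 and 359, with 2 of the 10 genes higher and Pkm called at 0.57. Unique exon reads gave 177 and 27 genes, and with the block, an alternative chosen after seeing the data, 343 and 219. DESeq2 gave 697 and 254, and leaving out both libraries numbered 1, also chosen after seeing the data, 625 and 161. Total exon reads gave 207 and 29. Of the 10 genes 0 were higher on total or unique exon reads, where Tpi1 was at 0.93 and 0.88. With single libraries left out, genes higher ranged from 27 to 274 and genes lower from 1 to 48, with 0 of the 10 higher and 0 to 1 lower. Tpi1 then ranged from 0.79 to 1.05 and Eno3 from -2.64 to -1.99. The log2 ratio of Slc2a3 over Slc2a1 differed by -0.69 to 0.48, and by 0.059 on total gene reads per gene length. Slc16a3 ranged from -1.22 to 0.11, Slc16a1 from -0.0019 to 0.45 and Myc from -0.36 to 0.12. Without both libraries numbered 1 Slc16a1 was at -0.14 and P4ha1 at 0.031. The cause of these changes was not tested, and the fits with libraries left out held fewer samples.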
